A study of Mus musculus with 16 samples.

Results

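The 47 genes described here are the NRF2 antioxidant system and the ferroptosis machinery, taken from a fixed list of gene symbols. The list was set by symbol and not by a cut on measured values, but earlier results of these data were known when it was chosen. The genes are 47 of the 53679 gene symbols in the table and 229 of its 135202 isoforms. RNA-seq was done on 16 mouse primary cortical neuron cultures prepared at embryonic day 15 from wt mice, 4 in each of 4 groups. CONTROL-VEH cultures (1 to 4) received vehicle at DIV (day in vitro) 8 and a sham treatment 24 h later; CONTROL-TIA cultures (5 to 8) received 10 μM tianeptine (TIA), an atypical antidepressant, and the same sham. OGD-VEH cultures (9 to 12) received vehicle and, at DIV 9, 3 h of oxygen-glucose deprivation (OGD), an in vitro model of stroke; OGD-TIA cultures (13 to 16) received 10 μM TIA before the same OGD. RNA was taken after 6 h of reoxygenation, so each group is seen at a single dose and a single time.

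NRF2, encoded by Nfe2l2, is a transcription factor that its adaptor KEAP1 holds in the cytoplasm for degradation; oxidants and electrophiles modify KEAP1, and NRF2 then enters the nucleus, pairs with a small MAF protein and binds the antioxidant response element of genes for glutathione synthesis, thioredoxin recycling, NADPH supply, haem breakdown and iron storage. Ferroptosis is a form of cell death by iron-dependent peroxidation of membrane lipids; GPX4 reduces the lipid peroxides with glutathione, which needs cystine imported by SLC7A11, while ACSL4 and LPCAT3 build the polyunsaturated phospholipids that are peroxidised. In brain tissue the NRF2 pathway is known to be more active in astrocytes than in neurons.

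The unit is FPKM (fragments per kilobase of transcript per M mapped reads), summed over the isoforms of a gene. Sequencing depth was estimated at 20.0 to 25.9 M reads per culture, from the steps between low values, so that 1 read on a transcript of 1 kilobase is worth about 0.0501 FPKM at the lowest estimate; the labels give a somewhat lower range of aligned reads. The cultures were checked against the markers of their labelled cell type and of others. The 9 neuronal markers summed to 2125 to 2786 FPKM in the 8 control cultures, to 1977, 1509, 1422 and 1060 in OGD-VEH 9 to 12 and to 2131, 2121, 2243 and 1371 in OGD-TIA 13 to 16. The 9 astrocyte markers summed to 672.5 to 916 FPKM in 7 of the control cultures, to 1642 in CONTROL-VEH 4, to 1034, 1405, 1286 and 2607 in OGD-VEH 9 to 12 and to 922, 886, 773 and 1981 in OGD-TIA 13 to 16. The 8 markers of the oligodendrocyte lineage summed to 159.5 to 213 FPKM in the controls and to as much as 676 in OGD-VEH 12. The 8 microglial markers summed to at most 3.13 FPKM in any culture, with Tmem119 at 0.0950 FPKM or less and Aif1 at 2.76 FPKM or less. The 6 markers of fibroblasts and vessels summed to at most 17.1 FPKM, and the 4 of dividing progenitors to 28.7 to 68.9 in the controls, 41.5 to 128 in OGD-VEH and 35.1 to 109 in OGD-TIA. Over both drug arms 5 of the 9 neuronal markers passed as lower after OGD with limma, 3 of the 9 astrocyte markers as higher, and 5 of the 7 oligodendrocyte lineage markers tested as higher and 1 as lower. Of the 4 markers of dividing progenitors 2 passed as higher, and the 1 marker of fibroblasts and vessels tested passed as lower. Passed means an adjusted p of at most 0.05, which over both arms held for 18.7% of all genes as higher and 13.4% as lower. With vehicle alone 1 of the 9 neuronal markers passed as lower and 0 of the 9 astrocyte markers passed. Of the 7 oligodendrocyte lineage markers 4 were then higher and 1 lower, and no marker of the other lists passed. The shares of all genes there were 4.99% and 3.45%. Cultures OGD-VEH 12 and OGD-TIA 16 stood apart by these sums from the rest of their groups, and OGD-VEH 9 was the OGD-VEH culture nearest to the controls. In bulk RNA, fewer cells of a type and less RNA per cell cannot be told apart, and the part of these shifts in the results was not tested beyond the counts given below with the astrocyte markers as a term and without the cultures that stood apart.

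**Figure D1:**
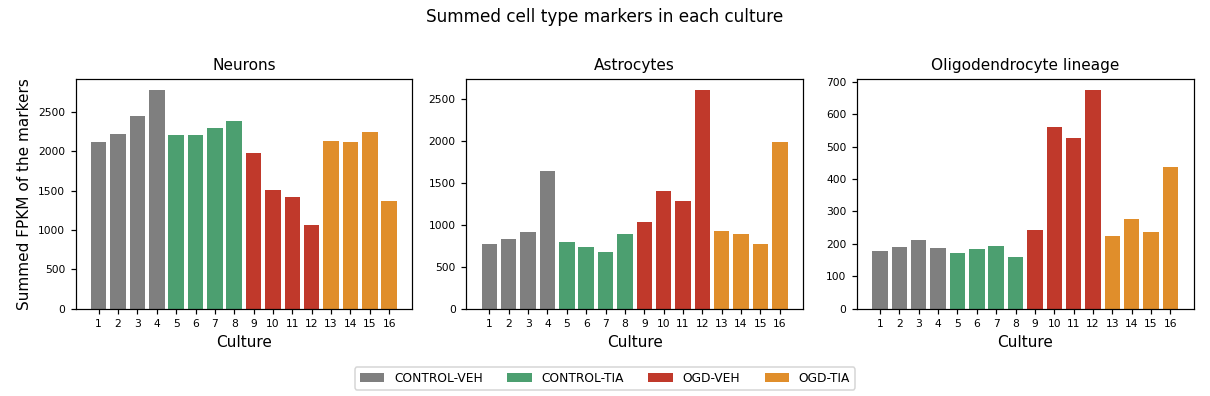
Summed FPKM of the neuronal, astrocyte and oligodendrocyte lineage markers (y axes) in each of the 16 cultures (x axis), coloured by group. The astrocyte sum is 2607 in OGD-VEH 12, 1981 in OGD-TIA 16 and 1642 in CONTROL-VEH 4.

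The stretch before the start of transcription is shown for the members that rose in OGD-VEH and that hold there either of the motifs relevant to this pathway, since these are the places where NRF2 or the AP-1 factors of the stress response could act. Promoter windows of RefSeq (GRCm38.p6, 250 bases before to 50 bases after the start) were at hand for 40 of the 47 members. The core of the antioxidant response element, TGACNNNGC on either strand, lay in the window of 11 of these 40 members, Nfe2l2, Gclm, Mgst1, Txnrd1, Srxn1, Prdx1, Sod1, G6pdx, Pgd, Me1 and Ncoa4, against 14% of the 27025 gene symbols of the table. The AP-1 motif TGANTCA, on either strand, lay in the windows of 5 members, Osgin1, Gstp1, Srxn1, Prdx1 and Me1, against 8.97% of gene symbols. In Prdx1 and Me1 an AP-1 motif overlapped the element. The 250 bases before the start are chr2:75704664-75704913 (minus strand) for Nfe2l2, chr8:119436897-119437146 (plus strand) for Osgin1, chr3:122245307-122245556 (plus strand) for Gclm, chr10:82858956-82859205 (plus strand) for Txnrd1, chr2:152105274-152105523 (plus strand) for Srxn1 and chr4:116685349-116685598 (plus strand) for Prdx1. They are printed 5′ to 3′ on the strand of the gene, with capitals on the element core in Nfe2l2, Gclm and Txnrd1, on the AP-1 motif in Osgin1 and Srxn1, and on both in Prdx1. The element of Srxn1 begins 29 bases into the transcript and is not shown. The stretches of Osgin1 and Txnrd1 lie inside the gene spans, which begin at chr8:119434124 and chr10:82833951, so they precede an internal start.
Nfe2l2: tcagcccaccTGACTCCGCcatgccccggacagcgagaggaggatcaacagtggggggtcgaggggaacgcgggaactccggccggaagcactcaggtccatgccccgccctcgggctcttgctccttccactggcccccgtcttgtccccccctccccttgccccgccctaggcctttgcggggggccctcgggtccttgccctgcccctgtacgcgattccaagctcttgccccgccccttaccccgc
Osgin1: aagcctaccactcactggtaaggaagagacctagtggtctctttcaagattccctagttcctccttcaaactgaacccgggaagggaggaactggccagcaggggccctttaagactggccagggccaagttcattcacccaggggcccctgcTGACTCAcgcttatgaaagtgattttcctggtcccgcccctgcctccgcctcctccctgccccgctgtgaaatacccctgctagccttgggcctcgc
Gclm: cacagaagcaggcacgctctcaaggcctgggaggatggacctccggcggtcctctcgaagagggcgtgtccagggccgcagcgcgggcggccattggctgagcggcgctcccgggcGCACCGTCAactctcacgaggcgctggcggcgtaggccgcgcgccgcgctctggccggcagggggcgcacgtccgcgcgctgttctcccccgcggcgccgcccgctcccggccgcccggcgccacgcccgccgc
Txnrd1: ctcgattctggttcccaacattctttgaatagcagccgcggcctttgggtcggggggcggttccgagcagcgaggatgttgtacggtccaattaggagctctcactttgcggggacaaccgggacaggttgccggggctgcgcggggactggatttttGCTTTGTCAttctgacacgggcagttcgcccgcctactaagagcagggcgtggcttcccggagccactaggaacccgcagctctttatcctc
Srxn1: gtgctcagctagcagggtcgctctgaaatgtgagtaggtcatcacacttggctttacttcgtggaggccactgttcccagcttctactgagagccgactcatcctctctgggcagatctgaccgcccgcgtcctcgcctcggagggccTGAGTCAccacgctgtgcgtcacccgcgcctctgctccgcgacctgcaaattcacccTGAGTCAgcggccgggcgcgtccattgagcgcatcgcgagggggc
Prdx1: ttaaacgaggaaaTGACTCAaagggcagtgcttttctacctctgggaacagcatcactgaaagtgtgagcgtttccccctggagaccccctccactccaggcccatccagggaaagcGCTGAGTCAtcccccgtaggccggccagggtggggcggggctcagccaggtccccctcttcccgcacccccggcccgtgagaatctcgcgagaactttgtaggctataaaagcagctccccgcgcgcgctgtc
These matches are letters in a short window and do not show that a factor was bound.

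Several of the inducible NRF2 genes were higher after OGD. In OGD-VEH against CONTROL-VEH, 10 of the 45 members tested were called higher: the factor gene Nfe2l2, the classical targets Hmox1, Nqo1 and Osgin1, the glutathione genes Gclc, Gclm and Gsta4, the thioredoxin genes Txnrd1 and Srxn1, and Ptgs2. None was called lower. Called means an adjusted p (padj, Benjamini-Hochberg over all genes tested with limma) of at most 0.05 together with a change of 1 or more on the log2 scale in either direction; of the 16346 genes tested, 2.4% were called higher and 1.68% lower. On padj alone 12 members were higher, with Prdx1 and Ftl1 added, against 4.99% of genes, and 0 were lower, against 3.45%; at an unadjusted p under 0.05, limma gave 29 higher members, against 20.2% of genes, and 1 lower, Acsl4, against 14.9%. Ptgs2 passed the minimum mean of 0.5 FPKM only through its OGD-VEH level, so it had to differ there. Without it 9 of 44 were called and 11 of 44 were higher on padj. Ptgs2 is also among the 29. Sod3 and Slc40a1 were too low to be tested.

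The median log2 fold change of the 45 members, Ptgs2 included, was 0.70, beside 0.10 over all genes. The 4 OGD-VEH values lay above all 4 CONTROL-VEH values in 18 of the 45 members, against 12.7% of genes. Ptgs2, which had to differ there, is among the 18. The OGD-VEH values lay below all CONTROL-VEH values in 1 member, Sod2, against 9.95% of genes. For each member without overlap the two-sided exact permutation test over the 70 assignments of 8 cultures gave 0.0286, the smallest p it can give. Values without overlap always give that p, so it adds nothing to the count. The count depended on which cultures were kept. Leaving out CONTROL-VEH 1, 2, 3 or 4, OGD-VEH 10 or OGD-VEH 11 left 0 members called, leaving out OGD-VEH 12 left 1, Nqo1, and leaving out OGD-VEH 9 gave 22, among them Acsl4 as lower. Without the filter on low values 0 members were called, with padj for the members called between 0.0654 and 0.0932. For these alternatives the share of all genes called is not given.

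**Figure D2:**
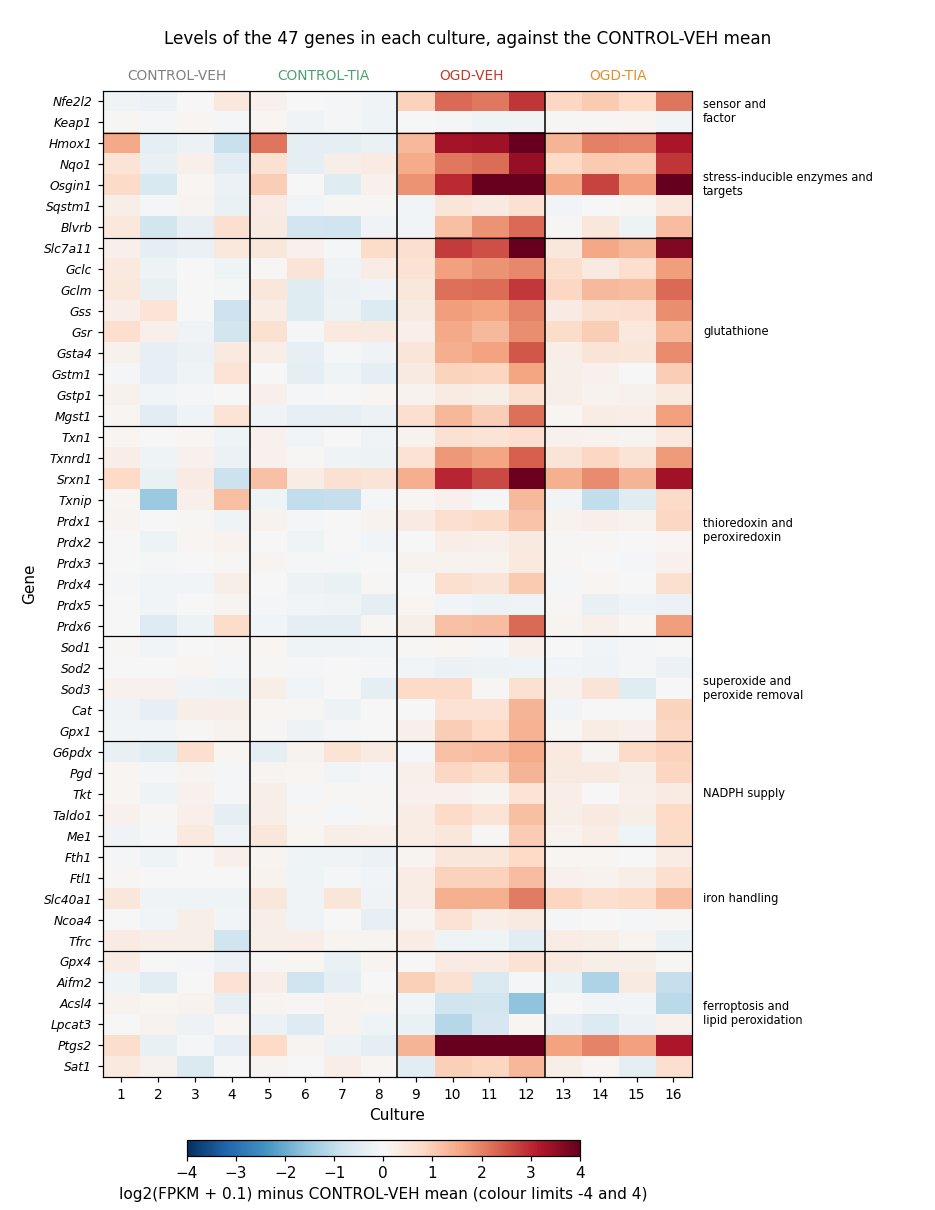
Level of each of the 47 genes (rows, grouped by role) in each of the 16 cultures (columns), as log2(FPKM + 0.1) minus the CONTROL-VEH mean, with colours cut at -4 and 4. Among the rows that are darkest red in OGD-VEH 10, 11 and 12 and in OGD-TIA 16 are Nfe2l2, Hmox1, Nqo1, Osgin1, Slc7a11, Gclm, Srxn1 and Ptgs2, while Keap1, Sod1 and Sod2 stay near white in all 16.

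With both drug arms in one fit (8 OGD against 8 control cultures, with TIA as a term), 14 members were called higher, against 2.8% of 16313 genes, and 0 lower, against 1.99%. The 4 added to the list were Blvrb, Slc7a11, Gss and Mgst1. On padj alone 29 of 45 members were higher, against 18.7% of genes, and 2 were lower, Sod2 and Acsl4, against 13.4%. Ptgs2, which passed the filter here too only through the OGD groups, is in these counts; without it 13 of 44 were called and 28 of 44 were higher on padj. Leaving out any 1 of the 16 cultures gave 11 to 16 members called, with 11 without OGD-VEH 12 and 11 without OGD-TIA 16. Leaving out both, an alternative added after the data were seen, left 7 called: Nfe2l2, Hmox1, Nqo1, Osgin1, Slc7a11, Gclm and Srxn1. With the summed astrocyte markers as a further term, also added afterwards, 8 of the 14 were called: Nfe2l2, Hmox1, Nqo1, Osgin1, Gclm, Gss, Srxn1 and Ptgs2. Ptgs2, selected through its OGD levels, counts among these 8. Isoforms annotated as protein coding held the minority of the level in 13 of the 47 genes, and with protein-coding isoforms alone, also added afterwards, 14 members were called with vehicle and 12 over both arms. No share of all genes is given for the alternatives in this paragraph.

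The size of the response differed between cultures of one group. OGD-VEH 12 was the highest OGD-VEH culture in 38 of 45 members, against 36.9% of genes, and OGD-VEH 9 the lowest in 33, against 41.4%. OGD-TIA 16 was the highest OGD-TIA culture in 38, against 38.7%. OGD-VEH 12 and OGD-TIA 16 were also the cultures with the highest astrocyte markers. CONTROL-VEH 4 had a high sum of astrocyte markers without OGD, with Aldoc at 838 FPKM against 274 to 299 in CONTROL-VEH 1 to 3. Aldh1l1, alone of the 9 markers, went the other way, at 60.6 FPKM against 142 to 180. This culture also had the highest neuronal sum of the 16, at 2786 FPKM. CONTROL-VEH 4 was the highest CONTROL-VEH culture in 16 of 45 members, against 32.9% of genes, and the lowest in 15, against 32.8%. Both shares of the members, 35.6% and 33.3%, were close to those of all genes. Of the 14 called over both arms, Nfe2l2, Blvrb, Slc7a11, Gsta4 and Mgst1 were highest of the 4 CONTROL-VEH cultures in CONTROL-VEH 4, at 1.49, 1.72, 1.48, 1.403 and 1.63 times the mean of the other 3. Hmox1, Nqo1, Gss, Txnrd1, Srxn1 and Ptgs2 were lowest in it, with Hmox1 at 0.365, Nqo1 at 0.632 and Srxn1 at 0.436 times that mean.

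In what follows, values are FPKM in the order of the cultures, a mean is given ± SD over 4 cultures, and a log2 fold change is that of FPKM + 0.1, ± SE, with padj from limma. The factor gene rose, and no difference was detected for its sensor. Nfe2l2 was 7.73, 7.42, 8.65 and 11.8 FPKM in CONTROL-VEH 1 to 4, 9.95, 8.57, 8.32 and 7.95 in CONTROL-TIA 5 to 8, 16.6, 42.8, 38.4 and 63.6 in OGD-VEH 9 to 12 and 15.6, 18.2, 15.3 and 39.2 in OGD-TIA 13 to 16. All 4 OGD-VEH values and all 4 OGD-TIA values of Nfe2l2 (chr2:75675513-75704641, minus strand, GRCm38) lay above every value of their controls. The mean went from 8.90 ± 2.01 to 40.4 ± 19.3 FPKM with vehicle, 4.54-fold (log2 fold change 2.04 ± 0.37, padj 0.0336), and from 8.70 ± 0.874 to 22.1 ± 11.5 FPKM with TIA (log2 fold change 1.22 ± 0.29, padj 0.121). Keap1 was 22.3, 20.6, 22.8 and 20.9 FPKM in CONTROL-VEH 1 to 4, 23.0, 19.8, 21.1 and 19.0 in CONTROL-TIA 5 to 8, 21.9, 20.3, 19.1 and 19.7 in OGD-VEH 9 to 12 and 22.5, 22.5, 22.8 and 20.2 in OGD-TIA 13 to 16. Keap1, which encodes the NRF2 sensor and adaptor of a ubiquitin ligase, stayed within a range of 19.0 to 23.0 FPKM in all 16 cultures, with a log2 fold change over both arms of 0.00 ± 0.063 (padj 0.979; 95% interval -0.14 to 0.13), whose sign turned under several alternatives.

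Among the classical stress-inducible targets 3 of 5 were called higher in OGD-VEH and 4 of 5 over both arms. Hmox1 was 74.01, 19.7, 22.2 and 14.1 FPKM in CONTROL-VEH 1 to 4, 114, 19.9, 19.8 and 21.5 in CONTROL-TIA 5 to 8, 64.2, 265, 273 and 439 in OGD-VEH 9 to 12 and 66.8, 105, 101 and 252 in OGD-TIA 13 to 16. Hmox1 (chr8:75093621-75100589, plus strand) encodes haem oxygenase 1, which breaks haem down to biliverdin, carbon monoxide and iron. Its control values were not uniform: CONTROL-VEH 1 and CONTROL-TIA 5 stood at 74.01 and 114 FPKM and the other 6 controls between 14.1 and 22.2, so OGD-VEH 9, at 64.2, lay below CONTROL-VEH 1. The log2 fold change was 3.03 ± 0.67 with vehicle (padj 0.0411) and 1.88 ± 0.63 with TIA (padj 0.187). Nqo1 was 2.01, 1.07, 1.55 and 0.976 FPKM in CONTROL-VEH 1 to 4, 2.11, 1.003, 1.60 and 1.73 in CONTROL-TIA 5 to 8, 3.94, 6.15, 6.72 and 16.2 in OGD-VEH 9 to 12 and 2.40, 2.92, 2.85 and 10.4 in OGD-TIA 13 to 16. NQO1 is a 2-electron quinone reductase, and its gene was above all matching controls in all 8 OGD cultures, by 2.33 ± 0.42 (padj 0.0336) and 1.24 ± 0.46 (padj 0.207) on the log2 scale. Osgin1 was 1.88, 0.662, 1.14 and 0.905 FPKM in CONTROL-VEH 1 to 4, 2.23, 1.05, 0.736 and 1.22 in CONTROL-TIA 5 to 8, 3.94, 9.14, 19.1 and 51.8 in OGD-VEH 9 to 12 and 3.33, 7.51, 3.55 and 33.2 in OGD-TIA 13 to 16. Osgin1, which encodes an oxidative stress-induced growth inhibitor, likewise showed no overlap in either arm and had the largest log2 fold change of the 45 members tested with vehicle, 3.57 ± 0.71 (padj 0.0347), beside 2.52 ± 0.71 with TIA (padj 0.147). Of the Osgin1 level, 59.5% lay in isoforms not annotated as protein coding; its coding isoforms alone went from 1.08 ± 0.425 to 7.74 ± 3.12 FPKM.

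Blvrb was 12.7, 5.58, 7.44 and 14.7 FPKM in CONTROL-VEH 1 to 4, 12.01, 5.49, 5.36 and 8.52 in CONTROL-TIA 5 to 8, 8.61, 21.6, 33.2 and 45.4 in OGD-VEH 9 to 12 and 9.69, 12.9, 8.10 and 22.1 in OGD-TIA 13 to 16. Blvrb, encoding biliverdin reductase B of the same haem pathway, overlapped its controls in both arms and was called over both arms only, at 1.001 ± 0.34 (padj 0.0342). Sqstm1 was 761, 623, 705 and 541 FPKM in CONTROL-VEH 1 to 4, 826, 611, 672 and 675 in CONTROL-TIA 5 to 8, 601, 914, 837 and 994 in OGD-VEH 9 to 12 and 606, 656, 680.1 and 869.6 in OGD-TIA 13 to 16. Sqstm1 encodes p62, an autophagy receptor that can displace NRF2 from KEAP1; its levels after OGD overlapped the controls in both arms, with log2 fold changes of 0.33 ± 0.17 (padj 0.192) and 0.01 ± 0.13 (padj 0.976).

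**Figure D3:**
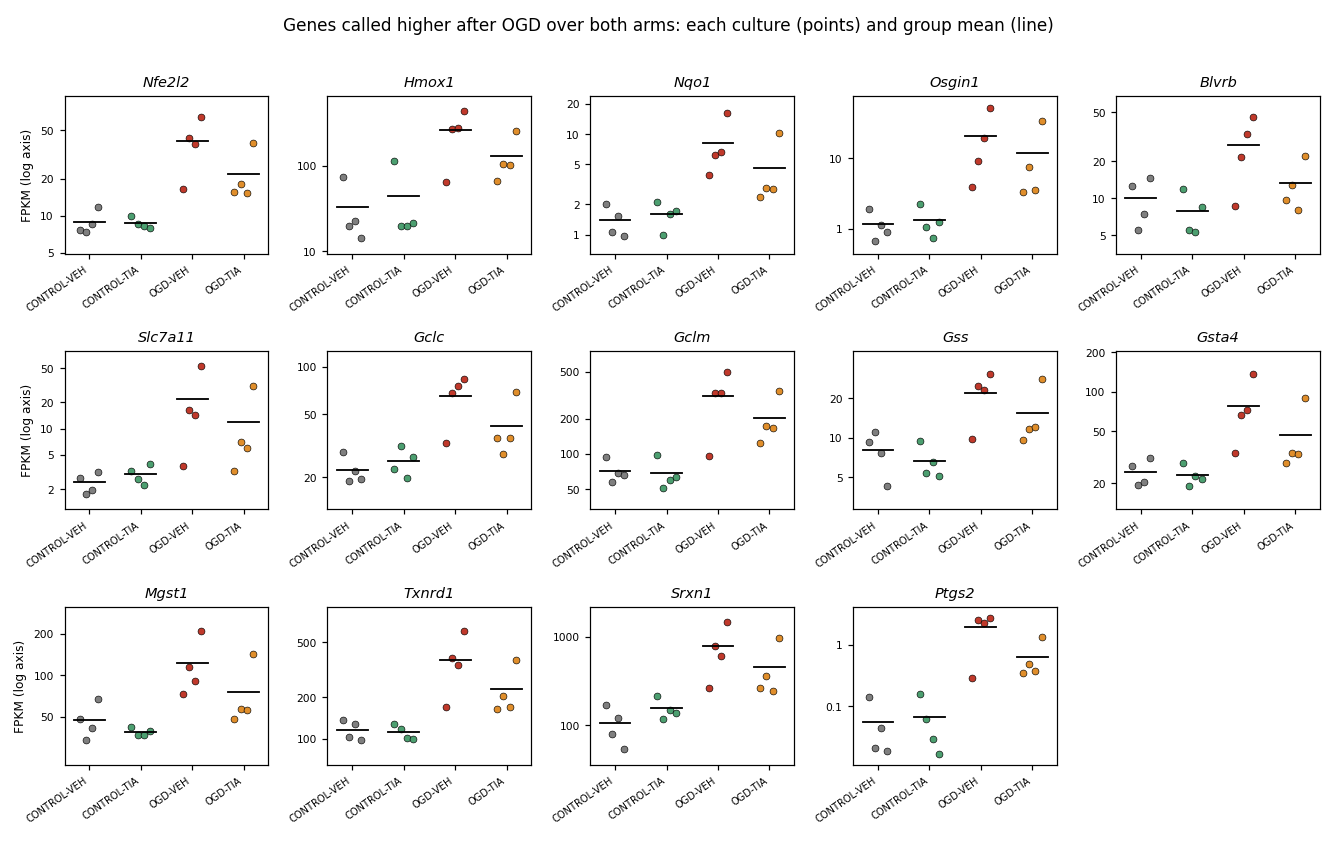
FPKM (log axes) of the 14 genes called higher over both drug arms, in each culture (points, in culture order within a group) and as group means (lines). OGD-VEH 9 is the lowest OGD-VEH point and OGD-TIA 16 the highest OGD-TIA point of all 14.

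All 9 glutathione genes passed padj over both arms and 6 were called: Slc7a11, Gclc, Gclm, Gss, Gsta4 and Mgst1. With vehicle alone 3 of the 9 passed, each also on fold. Slc7a11 was 2.69, 1.76, 1.93 and 3.14 FPKM in CONTROL-VEH 1 to 4, 3.23, 2.64, 2.20 and 3.94 in CONTROL-TIA 5 to 8, 3.66, 16.6, 14.5 and 52.4 in OGD-VEH 9 to 12 and 3.20, 6.94, 5.91 and 31.3 in OGD-TIA 13 to 16. Slc7a11 (chr3:49892526-50443614, minus strand) encodes the cystine importer that feeds glutathione synthesis and is a main brake on ferroptosis. Its 4 OGD-VEH values lay above the controls, from 3.66 to 52.4 FPKM, and it missed the threshold with vehicle (log2 fold change 2.61 ± 0.68, padj 0.0502); over both arms it was 2.02 ± 0.50 (padj 0.00897). Gclc was 28.7, 18.8, 21.7 and 19.4 FPKM in CONTROL-VEH 1 to 4, 22.4, 31.5, 19.8 and 26.7 in CONTROL-TIA 5 to 8, 32.8, 68.4, 75.5 and 83.6 in OGD-VEH 9 to 12 and 35.3, 28.1, 35.1 and 69.4 in OGD-TIA 13 to 16. Gclm was 94.1, 57.4, 69.5 and 66.9 FPKM in CONTROL-VEH 1 to 4, 97.7, 51.1, 60.7 and 64.0 in CONTROL-TIA 5 to 8, 96.5, 329, 330.1 and 498 in OGD-VEH 9 to 12 and 125, 173, 165 and 342 in OGD-TIA 13 to 16. Gclc and Gclm encode the catalytic and modifier subunits of glutamate-cysteine ligase, the rate-limiting enzyme of glutathione synthesis. The log2 fold change with vehicle was 1.49 ± 0.29 for Gclc (padj 0.0347) and 1.92 ± 0.45 for Gclm (padj 0.0442), and with TIA 0.67 ± 0.28 (padj 0.24) and 1.49 ± 0.32 (padj 0.111). Gclm showed no overlap in either arm, whereas Gclc overlapped with TIA, where OGD-TIA 14 was below CONTROL-TIA 6. A retained-intron isoform of 495 bases held 65.1% of the Gclm level; the coding isoforms went from 23.1 ± 6.10 to 102 ± 52.3 FPKM, 4.42-fold beside 4.36-fold in the sum.

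Gss was 9.24, 11.1, 7.68 and 4.29 FPKM in CONTROL-VEH 1 to 4, 9.38, 5.43, 6.59 and 5.15 in CONTROL-TIA 5 to 8, 9.78, 24.8, 23.0 and 30.6 in OGD-VEH 9 to 12 and 9.59, 11.7, 12.1 and 27.9 in OGD-TIA 13 to 16. Gsr was 36.9, 26.5, 20.6 and 13.8 FPKM in CONTROL-VEH 1 to 4, 35.5, 21.6, 30.3 and 29.3 in CONTROL-TIA 5 to 8, 26.4, 66.2, 56.2 and 82.7 in OGD-VEH 9 to 12 and 38.3, 45.6, 31.0 and 57.1 in OGD-TIA 13 to 16. Gss (glutathione synthetase) and Gsr (glutathione reductase, which regenerates reduced glutathione) missed padj with vehicle, at 1.400 ± 0.40 (padj 0.058) and 1.22 ± 0.40 (padj 0.0757), and OGD-VEH 9 lay within the control range of both. Gsta4 was 27.1, 19.3, 20.4 and 31.3 FPKM in CONTROL-VEH 1 to 4, 28.7, 19.1, 22.8 and 21.6 in CONTROL-TIA 5 to 8, 34.0, 65.9, 73.2 and 136 in OGD-VEH 9 to 12 and 28.8, 34.1, 33.8 and 89.2 in OGD-TIA 13 to 16. Gstm1 was 489, 400.4, 445 and 732 FPKM in CONTROL-VEH 1 to 4, 509.8, 380.3, 449 and 392.4 in CONTROL-TIA 5 to 8, 648, 937, 909 and 1489.8 in OGD-VEH 9 to 12 and 590.3, 564, 499 and 1001 in OGD-TIA 13 to 16. Gstp1 was 183, 152, 158 and 164 FPKM in CONTROL-VEH 1 to 4, 188, 159.7, 163 and 172 in CONTROL-TIA 5 to 8, 181, 207, 193 and 256 in OGD-VEH 9 to 12 and 193, 180.1, 186 and 213 in OGD-TIA 13 to 16. These encode glutathione S-transferases, of which GSTA4 acts on the lipid peroxidation product 4-hydroxynonenal. Only Gsta4 of these 3 was called with vehicle (1.51 ± 0.38, padj 0.0477), and Gstm1 and Gstp1 passed padj over both arms at 0.75 ± 0.18 (padj 0.00844) and 0.26 ± 0.074 (padj 0.0172). Mgst1 was 48.2, 33.5, 41.5 and 66.8 FPKM in CONTROL-VEH 1 to 4, 41.8, 36.8, 36.6 and 39.3 in CONTROL-TIA 5 to 8, 73.4, 116, 90.6 and 211 in OGD-VEH 9 to 12 and 48.4, 56.7, 55.5 and 143 in OGD-TIA 13 to 16. Mgst1, a membrane-bound glutathione transferase with peroxidase activity, lay above its controls in every OGD culture of both arms; its log2 fold change was 1.29 ± 0.34 with vehicle (padj 0.0501) and 1.06 ± 0.24 over both arms (padj 0.00675).

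Of the 10 thioredoxin and peroxiredoxin genes, 3 passed padj with vehicle and 7 over both arms, all higher. Srxn1 was 168, 79.6, 120.0 and 53.4 FPKM in CONTROL-VEH 1 to 4, 215, 118, 147 and 138 in CONTROL-TIA 5 to 8, 261, 792, 604 and 1458 in OGD-VEH 9 to 12 and 259.7, 357, 245 and 978 in OGD-TIA 13 to 16. Srxn1 (chr2:152105516-152111376, plus strand) encodes sulfiredoxin, which repairs overoxidised peroxiredoxins, and was above its controls in all 8 OGD cultures, by 2.76 ± 0.53 (padj 0.034) with vehicle and 1.36 ± 0.43 (padj 0.17) with TIA. A non-coding isoform of 375 bases made up 79.6% of its level. The single coding isoform moved alike, from 22.5 ± 9.66 to 163 ± 87.4 FPKM. Txnrd1 was 137, 103, 128 and 96.8 FPKM in CONTROL-VEH 1 to 4, 128, 118, 101 and 98.9 in CONTROL-TIA 5 to 8, 170.2, 382, 342 and 606 in OGD-VEH 9 to 12 and 165, 205, 169.8 and 374 in OGD-TIA 13 to 16. Txnrd1, the cytosolic thioredoxin reductase, also separated fully in both arms, at 1.57 ± 0.34 (padj 0.0399) and 0.96 ± 0.25 (padj 0.138). Txn1 was 169.7, 163, 172 and 143 FPKM in CONTROL-VEH 1 to 4, 184, 151, 165 and 146 in CONTROL-TIA 5 to 8, 180.2, 249, 235 and 256 in OGD-VEH 9 to 12 and 184, 177, 176 and 211 in OGD-TIA 13 to 16. Its substrate thioredoxin, Txn1, moved less: 0.49 ± 0.13 with vehicle (padj 0.0505) and 0.35 ± 0.086 over both arms (padj 0.00864). Txnip was 137, 46.2, 151 and 302 FPKM in CONTROL-VEH 1 to 4, 116, 66.1, 68.7 and 126 in CONTROL-TIA 5 to 8, 134, 148, 126 and 321 in OGD-VEH 9 to 12 and 121, 65.7, 92.8 and 221 in OGD-TIA 13 to 16. Txnip encodes an inhibitor of thioredoxin; its values ranged from 46.2 to 302 FPKM within CONTROL-VEH alone and no difference was detected, with a 95% interval over both arms of -0.39 to 1.08 on the log2 scale.

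The peroxiredoxins, which reduce hydrogen peroxide with electrons from thioredoxin or glutathione, passed padj as higher over both arms in 4 of 6 cases. Prdx1 was 371, 352, 356 and 310.3 FPKM in CONTROL-VEH 1 to 4, 382, 339, 349 and 382 in CONTROL-TIA 5 to 8, 431, 548, 594 and 772 in OGD-VEH 9 to 12 and 382, 399, 380.0 and 616 in OGD-TIA 13 to 16. Prdx1 rose 1.69-fold with vehicle (log2 fold change 0.73 ± 0.16, padj 0.042), and its 4 OGD-VEH values lay above the controls. Prdx6 was 176, 125, 152 and 294 FPKM in CONTROL-VEH 1 to 4, 164, 138, 139 and 182 in CONTROL-TIA 5 to 8, 209.6, 397, 415 and 845 in OGD-VEH 9 to 12 and 189.9, 202, 185 and 558 in OGD-TIA 13 to 16. Prdx4 was 22.4, 21.3, 21.3 and 27.2 FPKM in CONTROL-VEH 1 to 4, 23.0, 19.8, 19.2 and 23.5 in CONTROL-TIA 5 to 8, 22.7, 35.6, 32.5 and 47.4 in OGD-VEH 9 to 12 and 22.2, 24.0, 23.4 and 35.7 in OGD-TIA 13 to 16. Prdx2 was 758, 679, 814 and 854 FPKM in CONTROL-VEH 1 to 4, 783, 686, 775 and 721 in CONTROL-TIA 5 to 8, 782, 931, 889 and 989.8 in OGD-VEH 9 to 12 and 796, 805, 775 and 816 in OGD-TIA 13 to 16. Prdx6, Prdx4 and Prdx2 passed padj only over both arms, at 0.96 ± 0.29 (padj 0.0208), 0.41 ± 0.14 (padj 0.0351) and 0.16 ± 0.057 (padj 0.0444). CONTROL-VEH 4, the control with the highest astrocyte marker sum, held 294 FPKM of Prdx6, more than OGD-VEH 9 and OGD-TIA 13, 14 and 15. Of the Prdx6 level, 97.3% was assigned to isoforms not annotated as coding, and of the Prdx2 level 65.2%. The coding isoforms of Prdx2 alone hardly differed, at 278 ± 21.9 FPKM in CONTROL-VEH and 288 ± 18.1 in OGD-VEH. With TIA they averaged 273 FPKM in CONTROL-TIA and 281 in OGD-TIA. The mitochondrial Prdx3 ranged from 39.9 to 55.3 FPKM and Prdx5 from 184 to 250.5 FPKM over the 16 cultures, and neither passed padj in any comparison.

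Among the enzymes that remove superoxide and peroxide, 1 passed padj over both arms as higher and 1 as lower, and none passed with vehicle alone. Sod1, the cytosolic superoxide dismutase, ranged from 354 to 453 FPKM and was not shown to differ (log2 fold change over both arms 0.04 ± 0.047, padj 0.484). Sod2 was 38.3, 36.9, 40.2 and 35.5 FPKM in CONTROL-VEH 1 to 4, 38.7, 36.7, 37.4 and 36.8 in CONTROL-TIA 5 to 8, 35.04, 32.1, 32.6 and 33.6 in OGD-VEH 9 to 12 and 34.97, 33.8, 35.3 and 32.2 in OGD-TIA 13 to 16. Sod2, the mitochondrial dismutase, was the only one of the 47 genes below its controls in all 8 OGD cultures, and by a small amount: -0.18 ± 0.10 with vehicle (padj 0.221), -0.13 ± 0.072 with TIA (padj 0.336) and -0.16 ± 0.048 over both (padj 0.0246). Gpx1 was 73.6, 74.6, 83.0 and 88.8 FPKM in CONTROL-VEH 1 to 4, 82.2, 69.7, 75.9 and 80.5 in CONTROL-TIA 5 to 8, 92.4, 158, 139 and 210.0 in OGD-VEH 9 to 12 and 82.2, 97.9, 91.7 and 143 in OGD-TIA 13 to 16. Gpx1, the cytosolic glutathione peroxidase, rose over both arms by 0.62 ± 0.15 (padj 0.00881) and missed padj with vehicle alone (0.0518). Cat (catalase) was 41.2 ± 7.79 FPKM in CONTROL-VEH and 67.3 ± 27.1 in OGD-VEH, with OGD-VEH 9 among the controls, and did not pass (padj 0.0853 over both arms). Sod3, the extracellular dismutase, was at most 0.165 FPKM in any culture.

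The NADPH-supplying genes were all numerically higher after OGD and 3 of 5 passed padj over both arms, none with vehicle alone. G6pdx was 15.9, 14.4, 30.6 and 20.3 FPKM in CONTROL-VEH 1 to 4, 15.0, 21.3, 28.4 and 24.5 in CONTROL-TIA 5 to 8, 18.7, 43.7, 46.2 and 54.8 in OGD-VEH 9 to 12 and 25.6, 20.9, 33.4 and 36.9 in OGD-TIA 13 to 16. Pgd was 38.1, 34.2, 38.9 and 34.4 FPKM in CONTROL-VEH 1 to 4, 39.5, 38.1, 33.3 and 34.3 in CONTROL-TIA 5 to 8, 41.5, 65.0, 59.6 and 92.4 in OGD-VEH 9 to 12 and 46.9, 46.8, 43.04 and 66.4 in OGD-TIA 13 to 16. Taldo1 was 109, 102, 112 and 74.1 FPKM in CONTROL-VEH 1 to 4, 116, 101, 92.9 and 102 in CONTROL-TIA 5 to 8, 121, 167, 142 and 225 in OGD-VEH 9 to 12 and 114, 126, 115 and 169 in OGD-TIA 13 to 16. G6pdx and Pgd encode the NADPH-producing dehydrogenases of the pentose phosphate pathway and Taldo1 its transaldolase. Their log2 fold changes over both arms were 0.68 ± 0.24 (padj 0.0395), 0.62 ± 0.14 (padj 0.00557) and 0.52 ± 0.14 (padj 0.0118). Pgd lay above its controls in all 8 OGD cultures. The transketolase gene Tkt and the malic enzyme gene Me1 did not pass, at 0.19 ± 0.076 (padj 0.0719) and 0.24 ± 0.16 (padj 0.255).

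Both ferritin genes passed padj as higher over both arms, and the other iron genes tested did not pass. Fth1 was 1185, 1110.3, 1249.8 and 1438 FPKM in CONTROL-VEH 1 to 4, 1339, 1100.1, 1134 and 1062 in CONTROL-TIA 5 to 8, 1329, 1715, 1690.1 and 2140.0 in OGD-VEH 9 to 12 and 1308, 1312, 1262 and 1510.3 in OGD-TIA 13 to 16. Ftl1 was 2518, 2376, 2401 and 2397 FPKM in CONTROL-VEH 1 to 4, 2655, 2170.1, 2370.3 and 2233 in CONTROL-TIA 5 to 8, 2956, 4635, 4610.1 and 5689.6 in OGD-VEH 9 to 12 and 2737, 2698, 2824 and 3847 in OGD-TIA 13 to 16. Fth1 and Ftl1 encode the heavy and light chains of ferritin, the cage that stores cytosolic iron, and had the highest group means in FPKM of the 47 genes in controls. Ftl1 (chr7:45457944-45459884, minus strand) went from 2423 ± 64.1 to 4473 ± 1129 FPKM with vehicle (log2 fold change 0.85 ± 0.17, padj 0.0357) and from 2357 ± 215 to 3026 ± 549 with TIA (0.35 ± 0.12, padj 0.193), without overlap in either arm. Fth1 passed padj over both arms only, at 0.34 ± 0.09 (padj 0.0132). The copy Ftl1-ps1 was listed at 20.8 FPKM in CONTROL-VEH and 43.6 in OGD-VEH (means), and how reads were divided between it and Ftl1 is uncertain. Tfrc was 127, 119, 119 and 58.5 FPKM in CONTROL-VEH 1 to 4, 119, 121, 109 and 109.8 in CONTROL-TIA 5 to 8, 123, 89.4, 90.2 and 73.8 in OGD-VEH 9 to 12 and 125, 119, 109 and 84.9 in OGD-TIA 13 to 16. Tfrc, the transferrin receptor that imports iron, was not shown to differ with vehicle (-0.13 ± 0.27, padj 0.75); its lowest value was in CONTROL-VEH 4, and OGD-VEH 10 to 12 lay below the other 3 CONTROL-VEH cultures. Ncoa4, the receptor that carries ferritin to lysosomes, was 129 ± 15.1 FPKM in CONTROL-VEH, 162 ± 21.8 in OGD-VEH and 127 ± 3.42 in OGD-TIA, and did not pass over both arms (padj 0.136). The iron exporter gene Slc40a1 reached at most 1.18 FPKM.

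**Figure D4:**
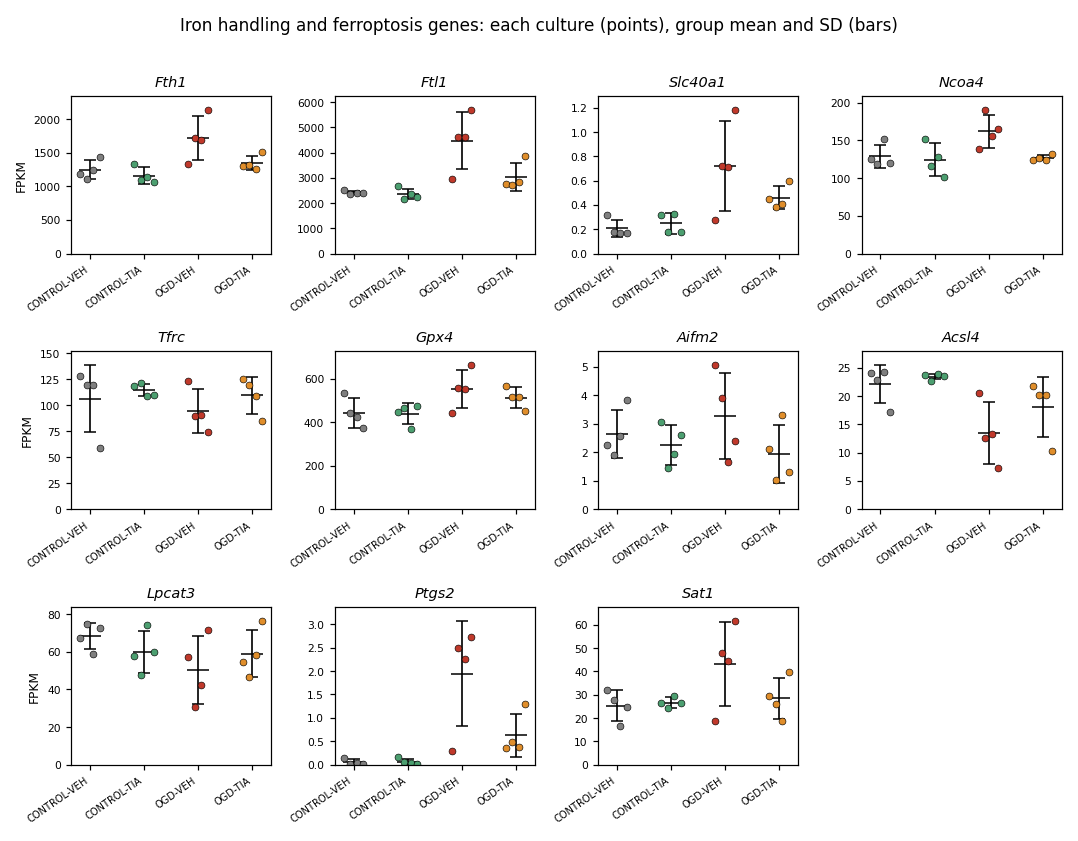
FPKM of the 5 iron handling and 6 ferroptosis genes in each culture (points), with the group mean and SD (bars; all axes start at 0). Ftl1 and Ptgs2 are above all their controls in the 4 OGD-VEH cultures, and Acsl4 falls from 22.1 FPKM in CONTROL-VEH to 13.4 in OGD-VEH on average.

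Of the 6 ferroptosis genes, Ptgs2 and, in the sum over isoforms, Gpx4 passed padj as higher over both arms, and Acsl4 as lower. Ptgs2 had to differ, since it passed the filter only through the OGD groups. Gpx4 was 533, 441, 422 and 373 FPKM in CONTROL-VEH 1 to 4, 448, 463, 368 and 475 in CONTROL-TIA 5 to 8, 444, 555, 553 and 660.3 in OGD-VEH 9 to 12 and 566, 514, 517 and 450.2 in OGD-TIA 13 to 16. Gpx4 (chr10:80047166-80056439, plus strand) encodes the peroxidase that removes lipid peroxides. In the sum over isoforms it passed padj over both arms as higher, by 0.27 ± 0.09 (padj 0.0309), but a retained-intron isoform of 380 bases held 77.8% of that level. Its protein-coding isoforms alone went from 41.8 ± 13.9 to 34.0 ± 14.6 FPKM with vehicle, and the log2 fold change over both arms was then -0.22 (padj 0.53), so no direction is given for Gpx4; the copy Gpx4-ps2 was listed at 164 FPKM in CONTROL-VEH. Acsl4 was 24.1, 22.9, 24.3 and 17.3 FPKM in CONTROL-VEH 1 to 4, 23.7, 22.8, 24.0 and 23.5 in CONTROL-TIA 5 to 8, 20.5, 12.6, 13.2 and 7.20 in OGD-VEH 9 to 12 and 21.9, 20.1, 20.1 and 10.3 in OGD-TIA 13 to 16. Acsl4 (chrX:142317993-142390535, minus strand), whose enzyme activates polyunsaturated fatty acids for phospholipids and favours ferroptosis, fell over both arms by 0.62 ± 0.19 on the log2 scale (padj 0.0258); with vehicle it missed padj (-0.80 ± 0.29, padj 0.0939), and CONTROL-VEH 4 lay below OGD-VEH 9. With the summed astrocyte markers as a term the value was -0.21 (padj 0.21).

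Ptgs2 was 0.141, 0.0210, 0.0440 and 0.0190 FPKM in CONTROL-VEH 1 to 4, 0.159, 0.0630, 0.0290 and 0.0170 in CONTROL-TIA 5 to 8, 0.283, 2.50, 2.26 and 2.73 in OGD-VEH 9 to 12 and 0.352, 0.486, 0.369 and 1.30 in OGD-TIA 13 to 16. Ptgs2, encoding cyclooxygenase 2 and widely used as a transcript marker of ferroptosis and inflammation, was low in all 8 controls, from 0.0170 to 0.159 FPKM, and reached 2.26 to 2.73 FPKM in OGD-VEH 10 to 12. Its log2 fold change with vehicle was 3.42 ± 0.68 (padj 0.0347). Because Ptgs2 passed the filter only through its OGD levels, it had to differ there, and this padj is no separate support. With TIA its mean was below the filter and it was not tested, although all 4 OGD-TIA values lay above the 4 CONTROL-TIA values. Aifm2 was 2.24, 1.89, 2.56 and 3.84 FPKM in CONTROL-VEH 1 to 4, 3.05, 1.44, 1.93 and 2.60 in CONTROL-TIA 5 to 8, 5.04, 3.90, 1.67 and 2.40 in OGD-VEH 9 to 12 and 2.10, 1.01, 3.31 and 1.30 in OGD-TIA 13 to 16. Aifm2, which encodes the ubiquinone reductase FSP1 that protects against ferroptosis independently of GPX4, overlapped in both arms and its 95% interval with vehicle, -0.60 to 1.05 on the log2 scale, leaves both directions possible. Lpcat3, the lysophospholipid acyltransferase, averaged 68.4 ± 7.01 FPKM in CONTROL-VEH and 50.4 ± 17.9 in OGD-VEH (padj 0.178). Isoforms not annotated as protein coding held 89.3% of that level, and its coding isoform averaged 6.92 ± 1.25 and 6.10 ± 0.76 FPKM. Sat1, a polyamine acetyltransferase and p53 target linked to ferroptosis, averaged 25.4 ± 6.55 and 43.1 ± 18.0 FPKM (padj 0.222), with OGD-VEH 9 inside the control range. Here 61.7% lay in isoforms not annotated as coding, and the coding isoforms averaged 9.17 ± 1.88 and 15.0 ± 2.19 FPKM.

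The comparison of OGD-TIA with CONTROL-TIA asks what OGD did in cultures that had received TIA. Limma called 0 of the 44 members tested, and 0% of 16242 genes. The study's own test reported differing genes in this comparison at the same thresholds, so the 0 holds for this fit only. At an unadjusted p under 0.05, 19 members were higher, against 11.6% of genes, and 0 lower, against 7.92%. The 19 were Nfe2l2, Hmox1, Nqo1, Osgin1, Slc7a11, Gclc, Gclm, Gss, Gsr, Gsta4, Gstm1, Mgst1, Txnrd1, Srxn1, Gpx1, Pgd, Taldo1, Fth1 and Ftl1. The OGD-TIA values lay above all CONTROL-TIA values in 13 members, against 9.51% of genes, and below them in 2, Sod2 and Acsl4, against 6.72%. With array quality weights, which count outlying cultures for less, 2 members were called. The share of all genes called with these weights is not given.

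Set side by side, the log2 fold change of OGD, taken with its sign, was lower with TIA than with vehicle in 38 of the 44 members tested in both arms, against 54.1% of genes; a lower signed value is a smaller rise or a larger fall. The interaction, which tests that difference itself, called 0 of 45 members with limma, and 0% of 16313 genes. At an unadjusted p under 0.05 it gave 1 lower member, Ftl1 (-0.50 ± 0.22, padj 0.722), against 3.4% of genes, and 0 higher, against 2.66%. Next were Prdx1, at -0.46 ± 0.24, and Srxn1, at -1.404 ± 0.73, both with padj 0.722. The 95% intervals of the interaction remained wide, for example -1.90 to 0.25 for Nfe2l2, -3.27 to 0.97 for Hmox1 and -3.29 to 0.91 for Slc7a11. These unpaired fits therefore show neither that TIA lessened the response of these genes nor that it did not.

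**Figure D5:**
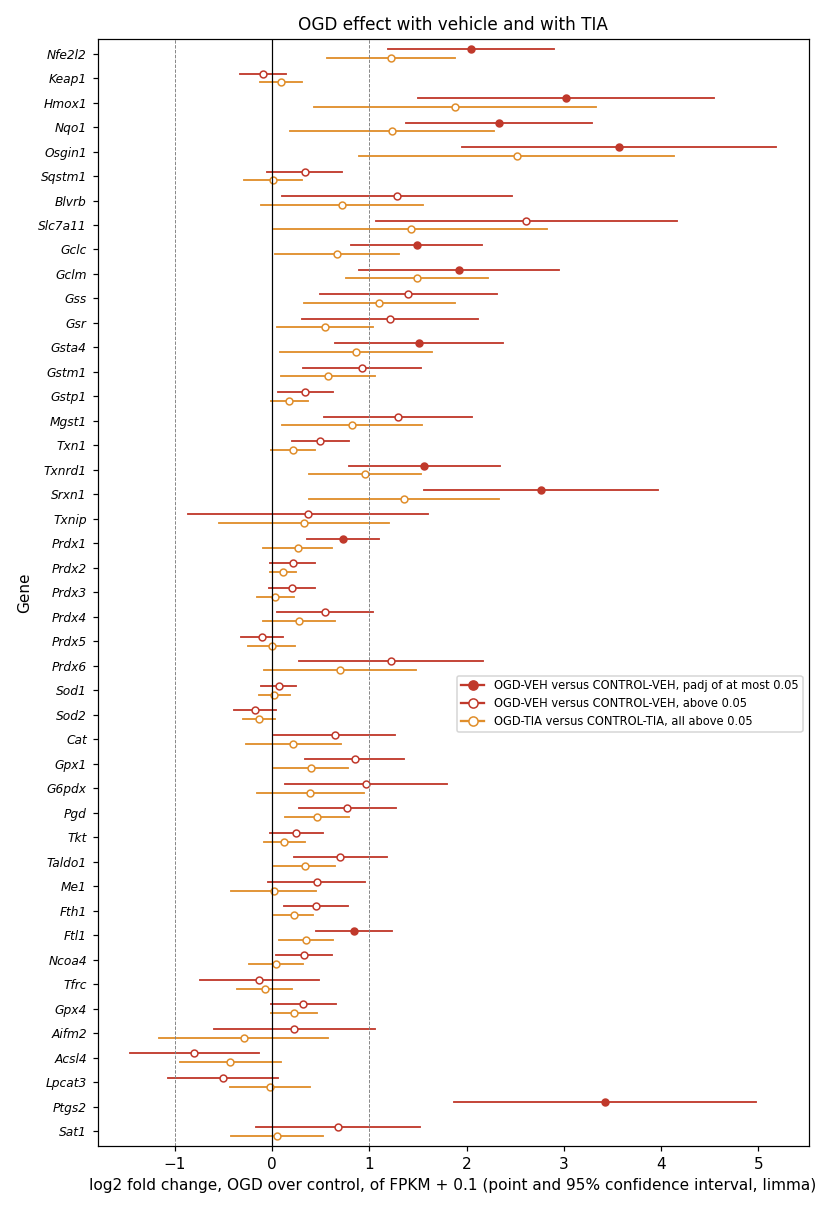
Log2 fold change of FPKM + 0.1 with its 95% confidence interval from limma for OGD-VEH versus CONTROL-VEH (red) and OGD-TIA versus CONTROL-TIA (orange) in the 45 members tested with vehicle. Filled points have a padj of at most 0.05 (12 genes, vehicle only); the orange interval overlaps the red one in every gene tested in both.

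Between the OGD groups, OGD-TIA against OGD-VEH, limma called 0 of 46 members and 0% of 16351 genes. At an unadjusted p under 0.05, 3 members were lower in OGD-TIA, 6.52% of those tested, close to the 5.04% of all genes. They were Ncoa4 (-0.34 ± 0.11), Ftl1 (-0.54 ± 0.20) and Fth1 (-0.33 ± 0.14), each with padj 0.55. At that p 0 members were higher, against 2.87% of genes. Of the Ncoa4 level, 62.0% lay in isoforms not annotated as protein coding. Its coding isoforms alone averaged 63.75 FPKM in OGD-VEH and 47.3 in OGD-TIA. The OGD-TIA cultures were uneven: for Srxn1, OGD-TIA 16 held 978 FPKM, within the range of OGD-VEH 10 to 12, whereas OGD-TIA 13, 14 and 15 held 259.7, 357 and 245, nearer to the 261 of OGD-VEH 9. This comparison shares its cultures with the OGD comparisons above.

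With TIA alone, without OGD, no member was shown to differ. In CONTROL-TIA against CONTROL-VEH limma called 0 of 44 members and 0% of 16170 genes. At an unadjusted p under 0.05, 0 members were higher, against 1.81% of genes, and 0 lower, against 2.03%. The difference of Nfe2l2 was -0.01 ± 0.16 (95% interval -0.38 to 0.35), that of Hmox1 0.27 ± 0.69 (-1.32 to 1.86) and that of Gclm -0.09 ± 0.22 (-0.60 to 0.41) on the log2 scale.

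A further 83 genes of the same pathways, on a list chosen for their roles, were read from the same fits, and 73 were tested with vehicle. Called higher in OGD-VEH were 6, and 1 was called lower, against 2.4% and 1.68% of genes; over both arms the counts were 5 and 1, against 2.8% and 1.99%. The 6 were Ephx1 (microsomal epoxide hydrolase), Cbr3 (a carbonyl reductase), Akr1b8 (an aldo-keto reductase), Gpx8 (a glutathione peroxidase of the endoplasmic reticulum), Sesn2 (sestrin 2) and Hspb1 (the small heat shock protein HSP27). All of these but Sesn2 were also called over both arms. Ephx1 averaged 18.4 FPKM in CONTROL-VEH and 114 in OGD-VEH, with a log2 fold change of 2.33 ± 0.45 (padj 0.034). Cbr3 averaged 5.09 and 25.5 FPKM, at 2.19 ± 0.36 (padj 0.0335). Gpx8 averaged 9.06 and 27.9 FPKM and Sesn2 10.5 and 25.5, while Akr1b8 and Hspb1 were low in CONTROL-VEH, at 0.570 and 0.519, and averaged 3.63 and 3.85 in OGD-VEH. The gene called lower was Nfe2l3, a relative of Nfe2l2, at 2.75 and 0.973 FPKM (-1.61 ± 0.38, padj 0.0447). The median log2 fold change of the 73 was 0.11, beside 0.10 over all genes. NRF2's partners and rivals on the element did not pass with vehicle: Mafg (padj 0.504), Mafk (0.422), Maff (0.184) and the repressor Bach1 (0.102). With TIA 0 of 72 were called by limma, with 16 at an unadjusted p under 0.05 in either direction; of all genes, 11.6% were higher and 7.92% lower at that p.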

How the data were processed

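The authors deposited a table of FPKM per isoform, scaled by TMM between the 16 libraries. Their stranded mRNA libraries gave 50-base single-end reads, which their service provider checked with FastQC, mapped to GRCm38 with STAR and quantified with eXpress (versions not given in the sources used here). The authors tested genes with DESeq2, which needs counts. Here limma was used, with the same thresholds of 0.05 on padj and 1 on the log2 fold change. It called fewer genes than the study reports in both comparisons of OGD with control.

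Isoforms were summed by gene symbol; 74 lines without an identifier were left out, and 99.82% of isoforms were found in GENCODE M21, which gave lengths, types and positions. Genes averaging 0.5 FPKM or more over the cultures of a fit entered the test, on log2(FPKM + 0.1), which understates the change of low genes. The comparisons of a pair of groups used the 8 cultures concerned, and the interaction and the effect over both arms used all 16. Depth was estimated from the step between low values of single-isoform genes; it limits precision only for the lowest genes. Groups came from the sample titles; another label calls the vehicle groups untreated. The methods of the study state 4 biological replicates a group, and nothing says whether cultures of different groups share a preparation.

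The members, the gene lists and the tests were chosen with earlier results of these data known. Values in every culture are given for members that passed padj with vehicle or over both arms, the 3 with the smallest interaction p, and a fixed set of pathway genes; the others are given by mean, range and counts. The fit was tested on simulated data with known changes. Each gene and culture was drawn independently there, with the spread of CONTROL-VEH in both groups. That test could not show how the fit fares with the wider and uneven OGD groups. Alternatives covered the pseudocount, the filter, the scaling, the summing and unit of isoforms, the cultures in the fit, weights, variance shrinkage, the call rule and leaving out each culture; the astrocyte term, leaving out both OGD-VEH 12 and OGD-TIA 16, protein-coding isoforms alone, and the other alternatives for single genes over both arms were added after seeing the data. Promoter sequences are from RefSeq (GRCm38.p6). Tools were R 4.3.3, limma 3.58.1, Python 3.11.15, numpy 2.4.6, pandas 2.3.3 and matplotlib 3.10.9.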

Additional observations from a re-analysis of the deposited data

Results flagged for a closer look

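A culture was set apart from the other 3 of its group when its gap to the nearest of them passed Dixon's 95% limit as a share of the group's whole range. This held in 20 of the 144 groups of values tested (36 genes in 4 groups); chance flags about 1 in 20, and genes read from the same library are not independent. In 16 of the 20 the culture was OGD-TIA 16. It was the highest of OGD-TIA for Nfe2l2 at 39.2 FPKM (nearest 18.2), Nqo1 at 10.4 (2.92), Osgin1 at 33.2 (7.51), Slc7a11 at 31.3 (6.94), Gss at 27.9 (12.1), Gsta4 at 89.2 (34.1), Mgst1 at 143 (56.7) and Srxn1 at 978 (357). It was also the highest for Prdx1 at 616 FPKM (399), Prdx4 at 35.7 (24.0), Prdx6 at 558 (202), Pgd at 66.4 (46.9), Ftl1 at 3847 (2824) and Ptgs2 at 1.30 (0.486). It was the lowest for Keap1, at 20.2 FPKM beside 22.5 in the nearest culture, and for Acsl4, at 10.3 beside 20.1.

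Hmox1 was set apart in both control groups, at 74.01 FPKM in CONTROL-VEH 1 (nearest 22.2) and at 114 FPKM in CONTROL-TIA 5 (nearest 21.5). Txnip stood at 321 FPKM in OGD-VEH 12 (nearest 148), and Tfrc at 58.5 FPKM in CONTROL-VEH 4 (nearest 119).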

How the results depend on the processing

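No paired analysis was run, because the culture numbers, 1 to 16, are not shared between groups and no label pairs the cultures. Whether pairing by order within a group would change the results was not tested. The count of 10 members called in OGD-VEH versus CONTROL-VEH became 17 with array quality weights, 16 with isoforms weighted by length, 1 with each isoform tested by itself and 0 without the filter on low values, and 0 to 22 when a culture was left out; under the other alternatives it was 9 to 15. In OGD-TIA versus CONTROL-TIA and OGD-TIA versus OGD-VEH, array quality weights gave 2 and 3 members in place of 0, and the other alternatives 0. CONTROL-TIA versus CONTROL-VEH and the interaction gave 0 under every alternative run. Over both arms the count of 14 became 31 on padj alone, 8 with the astrocyte term and 7 without OGD-VEH 12 and OGD-TIA 16, and 10 to 16 otherwise. The cause of these shifts was not tested. Except for padj alone, the share of all genes called under each alternative is not given. A change in the members therefore cannot be told from a change over all genes.

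With vehicle and over both arms, the log2 fold changes of the 36 named members kept their sign except in these cases. With vehicle, protein-coding isoforms alone gave -0.32 for Gpx4 and -0.18 for Aifm2, and leaving out a culture gave -0.13 to 0.77 for Txnip and -0.020 to 0.49 for Aifm2. Over both arms, Keap1 was 0.028 with array weights, 0.0115 with isoforms weighted by length, 0.0021 with protein-coding isoforms, 0.053 with the astrocyte term, 0.025 without both cultures and -0.028 to 0.017 when 1 was left out. Txnip was -0.30 and Tfrc 0.19 with the astrocyte term, Tfrc 0.0079 without both cultures, and Gpx4 -0.22 with protein-coding isoforms. Aifm2 was 0.022 with the astrocyte term, 0.083 without both cultures and -0.17 to 0.10 when 1 was left out. With all cultures kept, 322 of 359 values with vehicle and 332 of 359 over both arms kept their sign and their side of the threshold. With 1 culture left out, 206 of 288 values with vehicle did so, 69 no longer passing, and 543 of 576 over both arms; without both cultures, 26 of 35 did. In the other comparisons, leaving out a culture turned the sign of 2 of 35 named members in OGD-TIA versus CONTROL-TIA, 15 of 35 in CONTROL-TIA versus CONTROL-VEH, 2 of 36 in the interaction and 0 of 36 in OGD-TIA versus OGD-VEH. Depth bears most on the low Ptgs2, Sod3 and Slc40a1.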

Other observations

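In each of the 4 groups the culture with the highest summed astrocyte markers was the last by number: CONTROL-VEH 4 at 1642 FPKM, CONTROL-TIA 8 at 889.8, OGD-VEH 12 at 2607 and OGD-TIA 16 at 1981. The control cultures with the highest Hmox1 were the first by number of their groups. CONTROL-VEH 1 was the highest CONTROL-VEH culture in 17 of 45 members, against 26.5% of genes, and CONTROL-TIA 5 the highest CONTROL-TIA culture in 34, against 38.3%. In CONTROL-TIA 5, Srxn1 stood at 215 FPKM, Osgin1 at 2.23 and Nqo1 at 2.11. The labels do not say whether cultures of different groups came from one preparation.

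Slc40a1, the gene of the only known cellular iron exporter, was below the filter with vehicle and was read for its values alone. Its means were 0.209 FPKM in CONTROL-VEH, 0.248 in CONTROL-TIA, 0.722 in OGD-VEH and 0.460 in OGD-TIA. All 4 OGD-TIA values lay above the 4 CONTROL-TIA values, as in 9.51% of the genes tested in that comparison. With vehicle the groups overlapped, with OGD-VEH 9 at 0.275 FPKM and CONTROL-VEH 1 at 0.315.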
